A study of Homo sapiens with 12 samples.

Results

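The genes described here are 37 neighbours on the proximal long arm of chromosome 13, from ZMYM5 to SLC7A1, a stretch of 9.77 Mb (GRCh38, chromosome 13, 19823482 to 29595688). They were chosen by name because their median expression had been seen to be higher in the prostate cancer lines MR49F and C4-2 than in LNCaP in these same libraries. Their differences from LNCaP are therefore given as a description. Counts of members past the test's threshold in those contrasts are printed once, beside the share of all genes, and support nothing. Of 57992 entries in the deposited count table, 38 carried one of the 37 symbols, since SPATA13 also names a non-coding entry with 5 counts in all, which is not used further. Enough reads for a test were found for 29 of the 37, and the remaining 8 had no count in any LNCaP library.

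Poly(A) RNA was compared between prostate adenocarcinoma lines that differ in their sensitivity to the antiandrogen enzalutamide. LNCaP (sensitive) is the androgen-responsive parent line. MR49F is an enzalutamide-resistant derivative of LNCaP, and C4-2 (sensitive) is a castration-resistant one. Each line had 3 biological replicates, and all were whole-cell samples for which the labels state no treatment. The labels also list a resistant line C4-2R, which was not analysed here because 3 columns of the table carry a name that matches no label. Each derivative is 1 line, so that its drug sensitivity cannot be told apart from anything else that differs between the lines.

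Total counts per library ran from 6990461 to 42770072, the highest in C4-2 replicate 1. The prostate luminal marker KLK3 was at 2592 to 2770 CPM (counts scaled to a common library total) in the LNCaP libraries, 3271 to 3601 in MR49F and 3959 to 4834 in C4-2, and KLK2, TMPRSS2, FOLH1 and HOXB13 were detected in every library. The 11 markers of basal, stromal, endothelial and leukocyte cells summed to at most 2.38 CPM per cell type in any library. KRT5, COL1A2, CDH5 and CD3E were at 0 in all of them. In C4-2, replicate 1 was the lowest of its line for 17 of the 29 tested members (38.0% of all tested genes), and in MR49F, replicate 3 was the highest for 19 of 29 (38.6% of all tested genes). Results that changed when a library was left out are given with that value. In such bulk samples, fewer cells of a type and less RNA per cell cannot be told apart.

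Genes of this stretch belong to no common pathway. They include parts of the basic machinery of most cells (RNA polymerase and nuclear pore subunits, proteasome assembly, mitochondrial translation). Others are signalling genes (FGF9, FLT1) or code for a membrane channel (GJB2). Among those studied in cancer are LATS2, a kinase of the growth-restraining Hippo pathway, CDK8, the kinase of the Mediator complex that links transcription factors to RNA polymerase II, and USP12, a deubiquitinase.

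Most tested members had higher means in both derivatives than in LNCaP, and 21 had their highest mean in C4-2 with MR49F between. Against LNCaP, the median log2 fold change over the 29 tested members was 0.76 in MR49F and 1.30 in C4-2, where the medians over all 15407 tested genes were 0.01 and -0.00115. An adjusted p under 0.05 (edgeR's quasi-likelihood test) with a higher level was reached by 26 members in MR49F, where 24.1% of all tested genes reached it, and by 28 in C4-2, where 26.2% did. None was called lower in either line, except that ZMYM2 was in C4-2 without C4-2 replicate 2 (log2 fold change -0.23). Calls in either direction were made for 47.0% of all tested genes in MR49F and 49.7% in C4-2. The called rise was over 2-fold for 6 members in MR49F (5.65% of all tested genes) and 21 in C4-2 (9.12%), and 25 members were called higher in both lines (8.84%). These contrasts chose the members and share the LNCaP libraries, so nothing is read from the counts. The means stood in the order LNCaP, MR49F, C4-2 for 21 members and in the order LNCaP, C4-2, MR49F for 6. ZMYM2 and GJB2 were the exceptions.

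**Figure D1:**
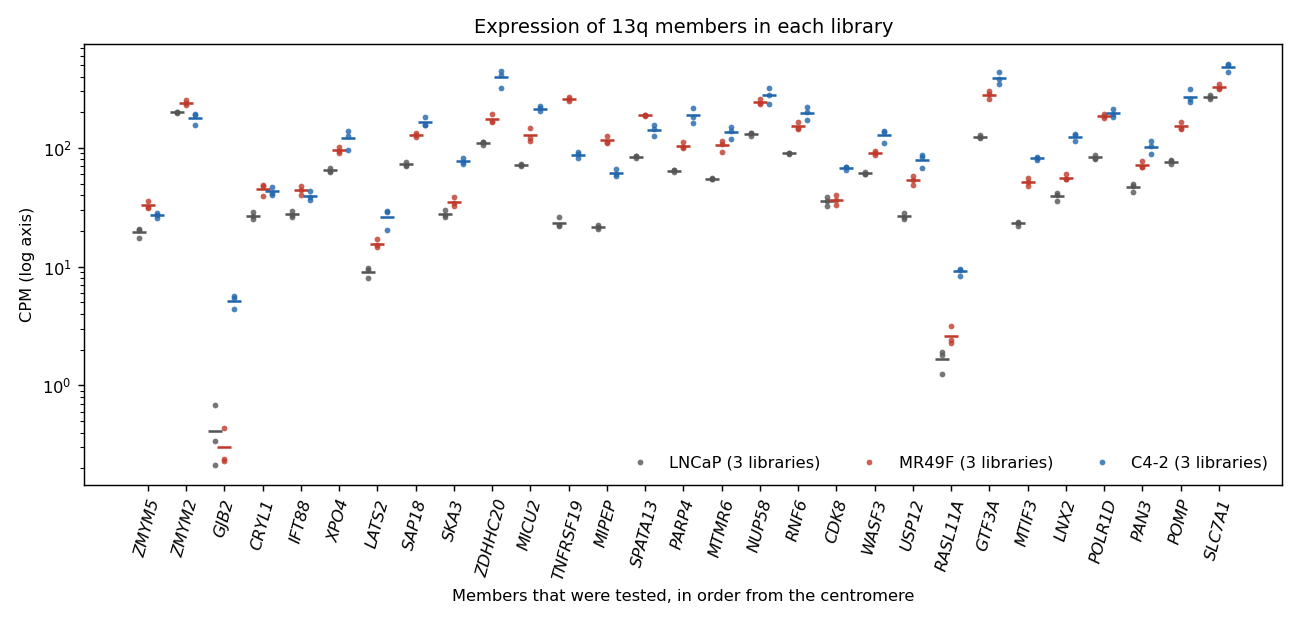
CPM on a log axis of the 29 tested members, ordered by position, in LNCaP (grey), MR49F (red) and C4-2 (blue). Points are single libraries and short bars are means of 3. For 26 members every library of both derivatives lies above every LNCaP library, while GJB2 and CDK8 overlap between MR49F and LNCaP.

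The label does not hold for every member. CDK8 was at 35.6, 38.6 and 32.4 CPM in the LNCaP libraries, 36.3, 33.0 and 39.9 in MR49F, and 69.8, 65.2 and 69.7 in C4-2, so that MR49F overlapped LNCaP. It is singled out after its values were seen. ZMYM2, a zinc finger protein of chromatin-silencing complexes, lay between 196 and 201 CPM in the LNCaP libraries, between 230 and 256 in MR49F and between 155 and 195 in C4-2. All C4-2 values of ZMYM2 were thus below all LNCaP values, with a log2 fold change of -0.16 (SE 0.0862). GJB2, a gap junction connexin, had 10 counts in the LNCaP group, 8 in the MR49F group and 310 in the C4-2 group. RASL11A, a small GTPase of the RAS family, had a log2 fold change of 0.64 in MR49F (SE 0.266).

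The sequences before the starts of TNFRSF19, CDK8 and GJB2 are shown because these genes stand for different patterns: TNFRSF19 had the highest log2 fold change in MR49F, CDK8 in MR49F overlapped LNCaP, and GJB2 had few counts outside C4-2. They are from RefSeq (GRCh38.p14), 5′ to 3′ on the strand of the gene and end at the first annotated transcribed base. Capitals mark matches, on either strand, to GGGCGG (the GC box) or CACGTG (the E box).
TNFRSF19: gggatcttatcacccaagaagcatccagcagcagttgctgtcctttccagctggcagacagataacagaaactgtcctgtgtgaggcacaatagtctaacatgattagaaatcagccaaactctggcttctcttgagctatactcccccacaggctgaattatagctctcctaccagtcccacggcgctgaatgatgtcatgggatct
CDK8: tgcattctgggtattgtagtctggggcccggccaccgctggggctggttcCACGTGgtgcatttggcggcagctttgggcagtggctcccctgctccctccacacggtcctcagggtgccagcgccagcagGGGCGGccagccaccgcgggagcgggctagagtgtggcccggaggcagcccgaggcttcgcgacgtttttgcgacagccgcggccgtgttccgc
GJB2: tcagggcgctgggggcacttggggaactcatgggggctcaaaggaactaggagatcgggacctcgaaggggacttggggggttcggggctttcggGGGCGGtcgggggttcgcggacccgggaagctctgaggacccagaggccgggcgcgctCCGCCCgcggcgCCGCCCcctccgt
The TNFRSF19 stretch (plus strand, chr13:23570162-23570369) held none of the 7 motifs searched and had 48.6% G and C. The CDK8 stretch (plus strand, chr13:26253879-26254103) held 1 GC box and 1 E box at 69.8% G and C. The GJB2 stretch (minus strand, chr13:20193011-20193188) held 3 GC boxes at 72.5%.

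RefSeq gave a 300-base window (250 before and 50 after the start) for 34 of the 37 members. Their median G and C content was 69.5% (49.0% to 84.3%), against 58.3% over 27305 windows of all genes. It was 70.3% for the 27 tested members with a window and 69.3% for the 7 untested ones. GGGCGG occurred in 79.4% of member windows and 44.6% of all windows, and the ETS factor motif CCGGAA in 26.5% and 17.6%. AGAACA, a core motif of steroid hormone response elements, occurred in 8.82% of member windows and 14.9% of all, and GTGGGAA, the motif of the Notch effector RBPJ, in 2.94% and 6.28%. TATAAA was in 5.88% of member windows (12% of all), CCAAT in 32.4% (35.7%) and CACGTG in 8.82% (7.43%). Both strands were searched for each motif, and where matches of different motifs overlapped each was counted. Such matches describe letters in a window and are no evidence of binding.

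Transcription and chromatin genes numbered 6, all tested. Their median log2 fold changes against LNCaP were 0.79 in MR49F and 1.06 in C4-2. GTF3A, which starts 5S ribosomal RNA transcription by RNA polymerase III, was at 123, 122 and 129 CPM in LNCaP, 283, 256 and 302 in MR49F, and 436, 383 and 345 in C4-2. The 3 lines did not overlap, and the log2 fold changes against LNCaP were 1.17 (SE 0.0903) in MR49F and 1.64 (SE 0.0905) in C4-2. POLR1D, a subunit shared by RNA polymerases I and III, was at 80.7, 88.0 and 81.6 CPM in LNCaP, 195, 187 and 177 in MR49F, and 212, 181 and 194 in C4-2. Both derivatives lay above LNCaP and overlapped each other. SAP18, a cofactor of histone deacetylase and splicing complexes, was at 70.3, 76.8 and 71.3 CPM in LNCaP, 129, 134 and 123 in MR49F, and 182, 156 and 157 in C4-2. For ZMYM5, a paralogue of ZMYM2, the means were 19.4 ± 1.81, 33.0 ± 2.60 and 27.1 ± 1.45 CPM in the same order of lines (SD, n = 3).

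The 4 ubiquitin and proteasome genes had median log2 fold changes against LNCaP of 0.87 in MR49F and 1.61 in C4-2. POMP, the chaperone that assembles the 20S proteasome, had the highest level per length of the members in each line, 53.7 CPM per kb of exon in LNCaP, 107 in MR49F and 190 in C4-2. Its libraries were at 79.2, 73.7 and 77.1 CPM in LNCaP, 147, 145 and 164 in MR49F, and 312, 257 and 244 in C4-2. The lines were separate from each other. RNF6, a ubiquitin ligase, was at 90.7, 88.2 and 91.3 CPM in LNCaP, 145, 147 and 164 in MR49F, and 172, 221 and 202 in C4-2. USP12 stood in the same order, with means of 26.7 ± 1.68, 53.4 ± 4.87 and 79.2 ± 10.4 CPM (SD, n = 3). LNX2, a ligase whose family acts on the Notch regulator NUMB, was at 39.8, 41.5 and 36.0 CPM in LNCaP, 54.6, 54.6 and 59.8 in MR49F, and 114, 129 and 130 in C4-2.

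LNX2 and POLR1D start head to head, with 213 bases between their RefSeq starts. The bases between them are shown because both genes start at its ends. They are written in the direction of POLR1D (plus strand, chr13:27620530-27620741, GRCh38.p14), and capitals mark 4 GGGCGG boxes and 1 CCAAT on either strand.
LNX2 to POLR1D: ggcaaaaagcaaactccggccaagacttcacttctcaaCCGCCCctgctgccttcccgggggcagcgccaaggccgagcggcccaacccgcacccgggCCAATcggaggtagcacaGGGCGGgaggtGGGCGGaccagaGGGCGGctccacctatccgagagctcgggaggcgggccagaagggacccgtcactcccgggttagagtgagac
Against LNCaP, the log2 fold change of LNX2 was 0.52 (SE 0.0933) in MR49F and 1.66 (SE 0.0904) in C4-2, while that of POLR1D was 1.16 (SE 0.0832) and 1.23 (SE 0.0828). Directly between MR49F and C4-2, LNX2 was lower in MR49F (log2 fold change -1.14, SE 0.0874, edgeR adjusted p = 5.67e-10), and POLR1D had a value of -0.08 (SE 0.0797, adjusted p = 0.426). Whether the genes of the pair differ from each other in this contrast was not tested.

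**Figure D2:**
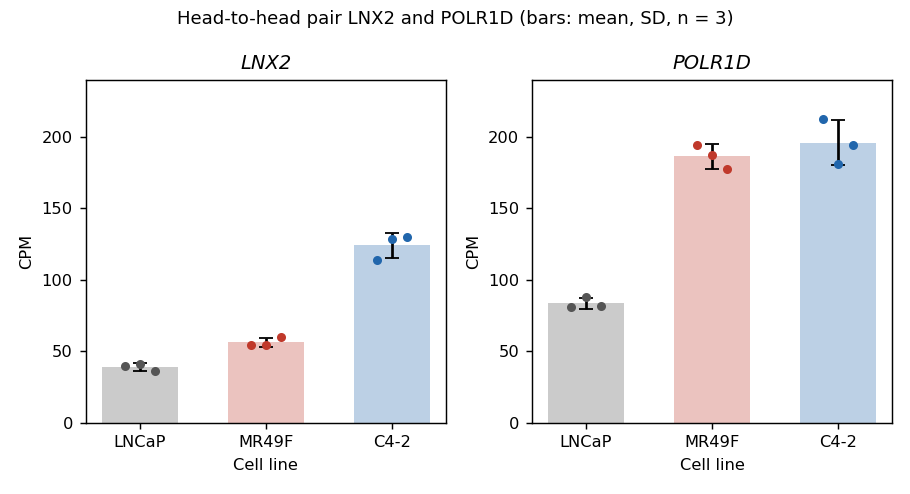
CPM of the head-to-head neighbours LNX2 and POLR1D in the 3 lines, with points for single libraries and bars for the mean with SD (n = 3). LNX2 averaged 39.1, 56.4 and 124 CPM in LNCaP, MR49F and C4-2, and POLR1D 83.5, 186 and 196.

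A further head-to-head pair is SKA3, a kinetochore protein needed to complete mitosis, and MRPL57, a mitochondrial ribosomal protein that is not a member, with 105 bases between their starts. The untranscribed part of that stretch (plus strand, chr13:21176603-21176644) held none of the 7 motifs.
SKA3 to MRPL57: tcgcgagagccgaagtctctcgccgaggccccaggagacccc
SKA3 had means of 27.9 ± 2.07, 35.2 ± 3.26 and 76.9 ± 5.12 CPM in LNCaP, MR49F and C4-2 (SD, n = 3). MRPL57 averaged 37.8 ± 0.873, 84.7 ± 13.9 and 75.2 ± 12.5 CPM. SKA3 was lower in MR49F than in C4-2 (log2 fold change -1.13, SE 0.0955, edgeR adjusted p = 2.58e-09), while MRPL57 had a value of 0.16 (SE 0.116, adjusted p = 0.250).

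The 3 mitochondrial genes had medians of 1.15 in MR49F and 1.59 in C4-2. MICU2, a gatekeeper of the mitochondrial calcium uniporter, was at 71.3, 70.1 and 73.1 CPM in LNCaP, 120, 115 and 146 in MR49F, and 217, 224 and 203 in C4-2. MIPEP, a peptidase that matures imported mitochondrial proteins, was at 20.8, 21.7 and 22.3 CPM in LNCaP, 110, 111 and 125 in MR49F, and 66.9, 60.7 and 58.2 in C4-2. MIPEP thus ran highest in MR49F, whereas MICU2 ran highest in C4-2. The initiation factor MTIF3, which overlaps GTF3A on the opposite strand, averaged 23.1 ± 0.871, 51.5 ± 3.79 and 81.9 ± 2.65 CPM (SD, n = 3).

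Signalling genes numbered 7, of which 3 could be tested. TNFRSF19 (TROY), a receptor of the tumour necrosis factor family, had the greatest difference among the members in MR49F. It was at 22.6, 21.9 and 26.1 CPM in LNCaP, 268, 251 and 257 in MR49F, and 82.5, 92.1 and 89.3 in C4-2. The log2 fold change against LNCaP was 3.46 (SE 0.0930) in MR49F and 1.90 (SE 0.0926) in C4-2, and no replicates of the 3 lines overlapped. LATS2 had means of 9.04 ± 0.920, 15.5 ± 1.28 and 26.1 ± 5.03 CPM in the same order (SD, n = 3). RASL11A was at 1.92, 1.82 and 1.24 CPM in LNCaP, 3.17, 2.26 and 2.42 in MR49F, and 9.41, 8.35 and 9.59 in C4-2, low throughout except in C4-2.

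Of the 6 membrane genes, 4 were tested. SLC7A1, the main importer of arginine and lysine, was at 271, 277 and 261 CPM in LNCaP, 315, 345 and 318 in MR49F, and 437, 503 and 510 in C4-2, and marks the telomeric end of the stretch. ZDHHC20, which attaches palmitate to membrane proteins, was at 113, 106 and 113 CPM in LNCaP, 165, 169 and 193 in MR49F, and 320, 446 and 414 in C4-2. Its C4-2 values lay far above both other lines, with replicate 1 the lowest of them. GJB2 was at 0.214, 0.341 and 0.689 CPM in LNCaP, 0.438, 0.238 and 0.231 in MR49F, and 5.69, 4.43 and 5.44 in C4-2. The phosphoinositide phosphatase MTMR6 averaged 55.0 ± 0.559, 105 ± 10.9 and 136 ± 15.6 CPM (SD, n = 3).

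Of the 4 genes of RNA handling and nuclear transport, 3 were tested, with median log2 fold changes of 0.63 in MR49F and 1.07 in C4-2. NUP58, a protein of the central nuclear pore channel, was at 126, 134 and 135 CPM in LNCaP, 241, 233 and 257 in MR49F, and 234, 318 and 279 in C4-2, so that the derivatives overlapped each other but not LNCaP. The export receptor XPO4 averaged 64.7 ± 2.71, 95.4 ± 5.46 and 120 ± 22.7 CPM, and PAN3, a subunit of a poly(A)-shortening complex, 46.6 ± 3.84, 72.1 ± 4.49 and 102 ± 13.3 (SD, n = 3). In the cytoskeletal group, 4 of 5 were tested, with medians of 0.63 and 0.90. SPATA13, a guanine nucleotide exchange factor, was at 85.4, 82.5 and 85.7 CPM in LNCaP, 190, 186 and 191 in MR49F, and 126, 143 and 156 in C4-2. The ciliary transport protein IFT88 averaged 27.6 ± 1.68, 44.0 ± 3.92 and 39.4 ± 3.46 CPM, and the actin regulator WASF3 60.9 ± 1.63, 91.4 ± 3.47 and 128 ± 16.0 (SD, n = 3). Of the other enzymes, CRYL1 averaged 26.9 ± 1.93, 45.2 ± 5.24 and 43.1 ± 3.39 CPM and PARP4, which carries a poly(ADP-ribose) polymerase domain, 64.5 ± 1.35, 104 ± 6.99 and 188 ± 28.1.

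The 8 members too low to test were FGF9, RNF17, AMER2, ATP8A2, SHISA2, FLT1, SLC46A3 and MTUS2. RNF17, a germ cell gene, and the lysosomal transporter SLC46A3 had no count in any library. FGF9 and AMER2 had 3 counts each, all in C4-2. SHISA2, known to retain Wnt and FGF receptors inside the cell, had 0 counts in LNCaP, 6 in each MR49F library, and 10, 5 and 4 in C4-2. Set against a floor of 3 counts over the LNCaP group, its counts stood 5.81-fold higher in MR49F and 2.85-fold higher in C4-2. The lipid flippase gene ATP8A2 stood 4.20-fold and 2.70-fold above the same floor, from 3, 6 and 4 counts in MR49F and 9, 4 and 5 in C4-2. The VEGF receptor FLT1 had 6 counts over MR49F and 3 over C4-2, and the microtubule gene MTUS2 had 2 and 13. The ratios to the floor allow for counting error in LNCaP only. Counting error in the derivatives and the spread between replicates are left out, so the ratios are not lower bounds.

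In the direct comparison of MR49F with C4-2 the LNCaP libraries enter only through the filter, scaling and shared estimate of the spread. The choice of members did not fix which derivative is higher, although it was made with these libraries known. In this contrast 20 of the 29 tested members were lower in MR49F and 5 higher at an edgeR adjusted p under 0.05, where 31.1% and 29.9% of all tested genes were called (61.0% in either direction). Of the 20, GJB2 passed the count filter only through C4-2, where it is high, so its difference is given as values without a test. TNFRSF19 was the 1 member over 2-fold higher in MR49F (6.46% of all tested genes). The median log2 fold change was -0.48, against -0.00141 over all tested genes. Replicates did not overlap, with MR49F below, for 19 members (31.3% of all tested genes), and with MR49F above for 5 (30.6%). CRYL1, IFT88, NUP58 and POLR1D did not pass, at log2 fold changes of 0.06, 0.17, -0.18 and -0.08. NUP58 passed without C4-2 replicate 1 (-0.29, edgeR adjusted p = 0.000453) or without a count filter (-0.21, adjusted p = 0.0464). IFT88 passed without C4-2 replicate 2 (0.23, adjusted p = 0.0483).

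**Figure D3:**
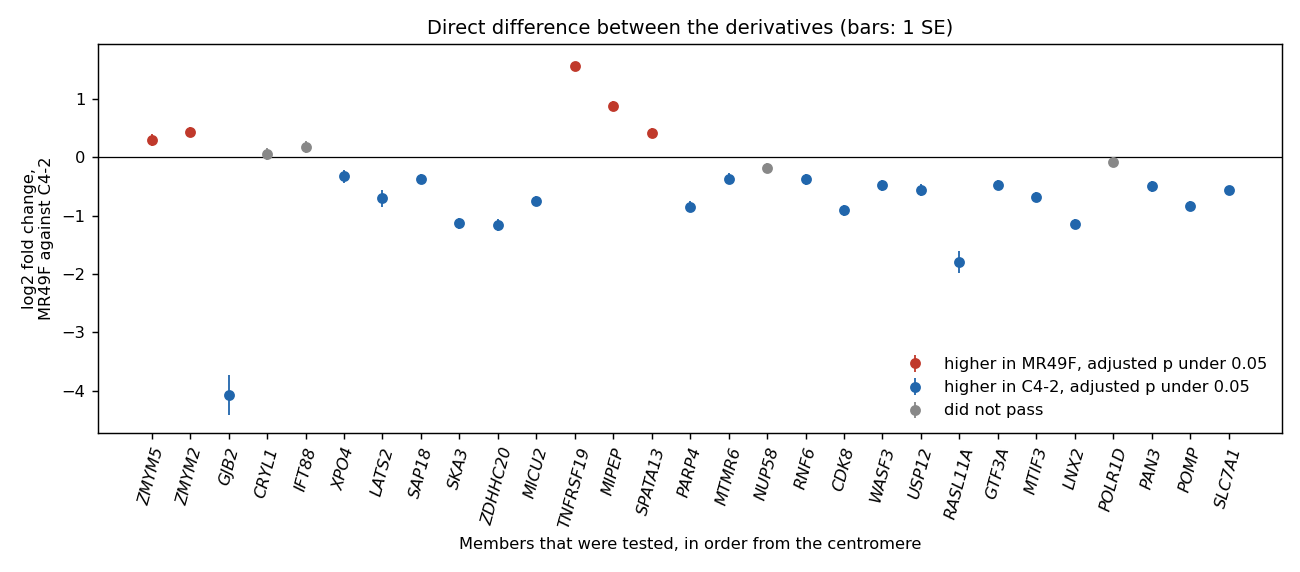
Log2 fold change of MR49F against C4-2 with bars of 1 SE for the 29 tested members, ordered by position. Red points (5) were higher in MR49F, blue points (20) higher in C4-2 and grey points (4) did not pass. GJB2, among the blue points, passed the count filter only through C4-2. TNFRSF19, MIPEP and SPATA13 stand next to each other above 0.

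The members higher in MR49F lay in 2 places. ZMYM5 (log2 fold change 0.29, SE 0.103, edgeR adjusted p = 0.0181) and ZMYM2 (0.43, SE 0.0859, adjusted p = 1.93e-04) are the members nearest the centromere. The ZMYM5 call was lost without C4-2 replicate 1 (0.24, adjusted p = 0.0555) or MR49F replicate 3 (0.22, adjusted p = 0.0870). It was also lost without a count filter (0.26, adjusted p = 0.07). TNFRSF19 (1.56, SE 0.0814, adjusted p = 1.08e-12), MIPEP (0.89, SE 0.0857, adjusted p = 1.78e-08) and SPATA13 (0.42, SE 0.0825, adjusted p = 1.63e-04) are consecutive members between 3.75 and 4.16 Mb from the start of ZMYM5. PCOTH, which is no member and lies beside MIPEP on the opposite strand, was higher in MR49F as well (2.34, SE 0.164, adjusted p = 1.31e-10), with means of 1.27 ± 0.103, 15.5 ± 1.94 and 3.17 ± 0.476 CPM in LNCaP, MR49F and C4-2 (SD, n = 3). The start of PCOTH overlaps the start of MIPEP, so reads of the 2 could not be told apart there without the strand. The grouping of these genes was made after their values were seen. It also set the ends of the stretches on either side, so the counts of higher and lower members there were partly fixed by it.

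Telomeric of SPATA13, from PARP4 to SLC7A1, 13 of 15 tested members were lower in MR49F than in C4-2 (31.1% of all tested genes). None of these members was higher (29.9%), and their median was -0.56. Among them, RASL11A had the lowest value (-1.80, SE 0.189, edgeR adjusted p = 6.22e-08), with under 10 CPM in every library, followed by LNX2 at -1.14 and CDK8 at -0.91 (SE 0.0952, adjusted p = 6.33e-08). Centromeric of TNFRSF19, from ZMYM5 to MICU2, 7 of 11 tested members were lower in MR49F (31.1% of all tested genes) and 2 higher (29.9%). The 7 include GJB2, which passed the count filter only through C4-2, and the median of the 11 was -0.36. In that region ZDHHC20 was at -1.15 (SE 0.102, edgeR adjusted p = 4.53e-09) and LATS2 at -0.70 (SE 0.143, adjusted p = 2.43e-04), and GJB2, by the counts given above, at -4.08. XPO4, also there, passed (-0.32, SE 0.108, adjusted p = 0.0138) but not without MR49F replicate 2 (-0.28, adjusted p = 0.0642), C4-2 replicate 2 (-0.20, adjusted p = 0.0740) or C4-2 replicate 3 (-0.29, adjusted p = 0.0579).

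Other genes inside the stretch were not chosen by name. Of 19 tested, 10 were called higher and none lower in MR49F against LNCaP (24.1% and 22.8% of all tested genes), with a median log2 fold change of 0.88. In C4-2, 11 were called higher and 1 lower (26.2% and 23.5%), with a median of 0.82. Among the 7 that code for proteins, 6 were called higher in MR49F and 5 in C4-2 (24.1% and 26.2% of all tested genes). Of 7 pseudogenes, 2 were called higher in each line, against the same shares. PDX1, a coding gene called higher in both lines, passed the count filter only through the derivatives. An unnamed intronic transcript called higher in C4-2 passed it only through C4-2. Their direction was thus partly fixed by the filter. The means of the centriole gene CENPJ were 24.1 ± 3.99, 49.1 ± 4.71 and 76.8 ± 5.87 CPM in the order LNCaP, MR49F, C4-2 (SD, n = 3). EEF1AKMT1, a methyltransferase gene between IFT88 and XPO4, had log2 fold changes of -0.21 (edgeR adjusted p = 0.391) and 0.20 (adjusted p = 0.367). PABPC3, an intronless copy of the poly(A)-binding protein gene PABPC1, was higher in MR49F (0.35) and lower in C4-2 (-0.23), and its reads may belong to the parent gene in part.

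Before ZMYM5, MPHOSPH8 had log2 fold changes against LNCaP of 0.23 in MR49F and 0.29 in C4-2, and PSPC1 of -0.11 and -0.27. MPHOSPH8 was called higher in both derivatives (edgeR adjusted p = 0.0365 and 0.00837). PSPC1 was called lower in C4-2 (adjusted p = 0.0136) but not in MR49F (adjusted p = 0.320). Neither passed between the derivatives (-0.06 and 0.16, edgeR adjusted p = 0.551 and 0.117). In the 5 Mb beyond SLC7A1, all 16 tested genes were called higher in C4-2 (26.2% of all tested genes), with a median of 1.05. In MR49F, 6 were called higher and 3 lower (24.1% and 22.8%), with a median of 0.05. Directly compared, 14 of these 16 were lower in MR49F and none higher (31.1% and 29.9% of all tested genes). N4BP2L1 and EEF1DP3, counted in the 16 and the 14, passed the count filter only through C4-2, where they are high. Their direction was thus partly fixed by the filter. From 5 to 10 Mb beyond, 4 were higher and 5 lower in C4-2 (26.2% and 23.5% of all tested genes, median 0.00178). In MR49F, 3 were higher and 7 lower there (24.1% and 22.8%, median -0.56). Among those called higher, DCLK1 passed the filter only through C4-2, and SPART only through the derivatives. Over the 187 tested genes farther out on the chromosome, the medians were -0.26 in MR49F and -0.00069 in C4-2.

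**Figure D4:**
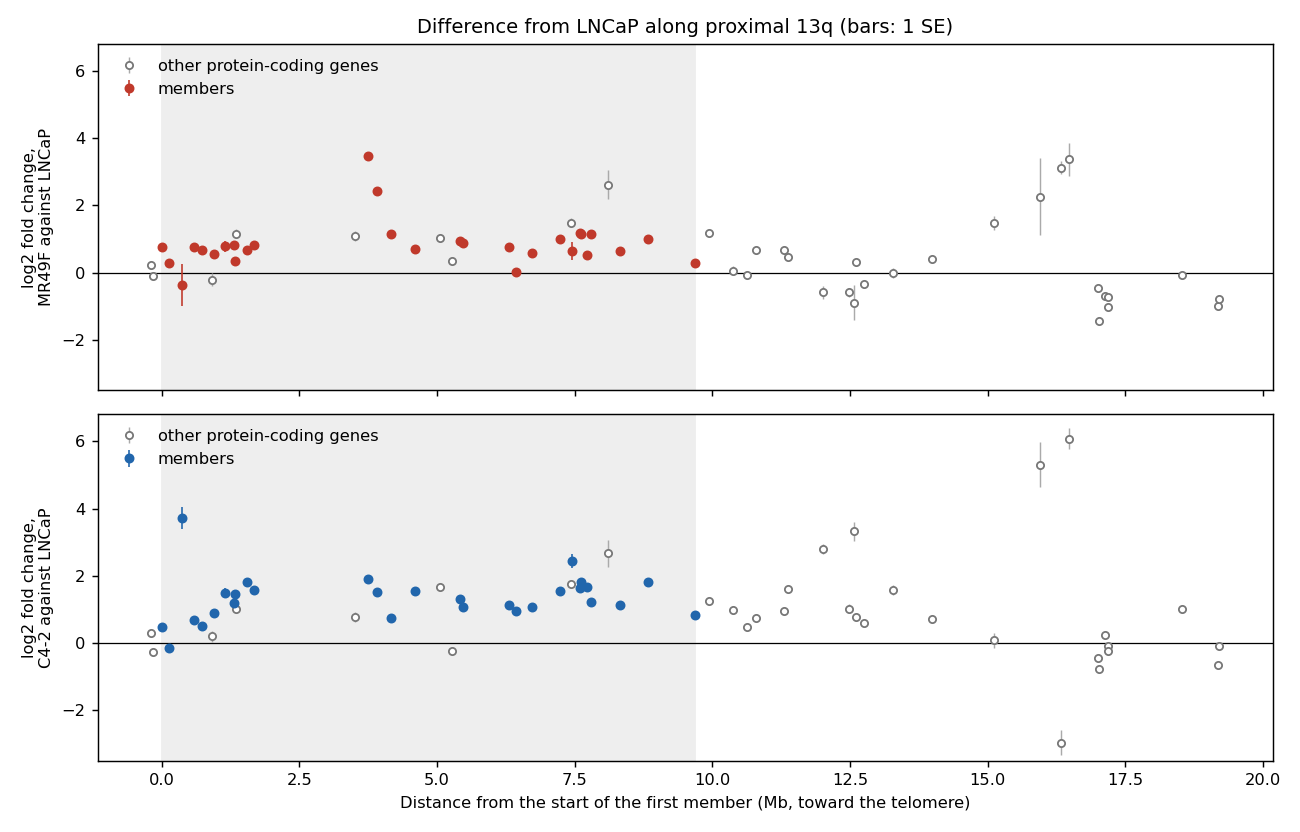
Log2 fold change against LNCaP (bars of 1 SE) of members (filled) and other protein-coding genes (open) by distance in Mb from the start of ZMYM5, for MR49F (top) and C4-2 (bottom). Grey shading runs from the first to the last tested member. Beyond it, C4-2 values stay above 0 for a further 5 Mb. MR49F values there lie on both sides of 0, from 1.17 (UBL3) to -0.89 (N4BP2L1, which passed the count filter only through C4-2). The MR49F median over all 16 tested genes there, including those not plotted, was 0.05.

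Genes that work together with members, all but the untested GJB6 on other chromosomes, were grouped in 13 lists. Over their 113 tested genes, 25 were called higher and 31 lower in MR49F against LNCaP (24.1% and 22.8% of all tested genes), and 18 higher and 40 lower in C4-2 (26.2% and 23.5%). Their median log2 fold changes were -0.01 and -0.12. Of 16 RNA polymerase I and III subunits tested, 4 were higher and 3 lower in MR49F (median 0.07), and 2 were higher and 11 lower in C4-2 (median -0.35). POLR1C, the direct partner of POLR1D, was among the higher ones (0.81 in C4-2). POLR3F was higher in MR49F (0.59) and lower in C4-2 (-0.53). The 9 tested RNA polymerase III factors held 1 higher and 2 lower gene in MR49F and 4 lower in C4-2, among them GTF3C1 (-0.44 and -0.56).

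In the Hippo list, 3 of 16 tested genes were higher and 7 lower in MR49F (24.1% and 22.8% of all tested genes). In C4-2, 1 was higher and 5 lower (26.2% and 23.5%). The factor TEAD2 was lower in MR49F (-2.61), and TEAD3 was higher in both lines (0.56 and 1.05). The YAP target AMOTL2, counted among the 7, had a value of -7.03 in MR49F, given without a test. It passed the count filter only through LNCaP and C4-2, where it is high, so its direction was partly fixed by the filter. The MR49F mean of AMOTL2 was only 0.0396 CPM, against 6.29 CPM for LNCaP, so the size of its decrease is uncertain. LATS1, the paralogue of LATS2, had log2 fold changes of -0.21 (edgeR adjusted p = 0.156) in MR49F and -0.44 in C4-2. Within the Mediator kinase module, the CDK8 paralogue CDK19 was lower in MR49F (-0.48) and higher in C4-2 (0.35), MED12 was higher in MR49F (0.67) and lower in C4-2 (-0.56), and CCNC moved likewise (0.23 and -0.52). Around USP12, its paralogue USP46 (0.33 and -0.44) and the cofactor WDR48 (0.45 and -0.33) were higher in MR49F and lower in C4-2, while WDR20 had values of -0.09 and 0.04 and did not pass in either line (adjusted p = 0.516 and 0.780).

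Of 6 genes of the calcium uniporter, 2 were higher in MR49F and 1 in C4-2, none lower. Over all tested genes, 24.1% were called higher and 22.8% lower in MR49F, and 26.2% and 23.5% in C4-2. MICU3 was higher in MR49F (0.54), and MCU, the pore, had log2 fold changes of -0.15 and -0.05. Among 11 genes of the SKA and outer kinetochore complexes, 1 was higher and 5 lower in MR49F, and 4 higher and 2 lower in C4-2. SKA2 was higher in MR49F (0.54) and lower in C4-2 (-0.43), SPC24 was lower in MR49F (-0.55) and higher in C4-2 (0.35), and NDC80 did the same (-0.50 and 0.43). Of 7 proteasome assembly genes, PSMD10 was the most changed in MR49F (0.60) and was lower in C4-2 (-0.35), and 2 of the 7 were higher in MR49F, with 2 higher and 2 lower in C4-2.

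Of 12 tested ciliary transport genes, 2 were higher and 2 lower in MR49F (24.1% and 22.8% of all tested genes), with IFT172 at 0.68. With only the 6 libraries compared, 6 were higher in MR49F. In C4-2, 1 was higher and 3 lower (26.2% and 23.5%), with IFT80 at 0.60. Of 9 deadenylation genes, 4 were lower in MR49F (CNOT1, -0.72) and 3 in C4-2 (CNOT6L, -0.98). Of 6 nuclear pore genes, 2 were lower in MR49F and 3 in C4-2, and NUP93 was lower in both (-1.63 and -1.41). Of 7 tested receptors and ligands of VEGF and FGF, 4 were higher in each line (24.1% and 26.2% of all tested genes). FGFR2 was higher in both (3.09 and 3.65) from 0.346 CPM in LNCaP, and passed the count filter only through the derivatives. NRP1 was lower in both (-1.27 and -1.11). In the list of amino acid transporters and connexins, SLC7A5 was lower in MR49F (-0.83) and higher in C4-2 (5.42), and GJB1 was higher in MR49F (1.97) and lower in C4-2 (-1.33).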

How the data were processed

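Poly(A) RNA of LNCaP, MR49F and C4-2 (3 biological replicates each, per the labels) was read as paired ends on a HiSeq2500 after a stranded kit, per the labels' protocols. The values are counts per Ensembl gene, deposited by the authors without normalization. The submitters' processing notes name build GRCh38.p12, TopHat2, edgeR 3.12.1, HTSeq 0.6.1 and FastQC 0.11.3. Not given in the sources used here: which step each served, the annotation release and the strand setting. Of the tested members, 4 overlap another tested gene and 10 have a pseudogene of their name, and their counts are uncertain. A set of 3 columns matches no label and was not used.

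GENCODE 29 (GRCh38) gave coordinates for 57388 of 57992 entries, and 56948 had a symbol. Tests used edgeR 4.0.16 in R 4.3.3 (quasi-likelihood, robust, TMM, filterByExpr by line, 1 mean per line, 6 residual degrees of freedom) on 15407 genes with Benjamini-Hochberg adjustment over all of them. The planned comparison of C4-2R was not made. SE was derived as |log2 fold change| / sqrt(F). CPM uses TMM-scaled library sizes. P-values set a difference between lines against the spread between cultures of the same line, estimated jointly for the lines. They do not extend to other derivatives. Members and lists were chosen with earlier results of these data known. Per-library values are given for the 12 members of highest mean CPM and the 4 in each direction that differ most between MR49F and C4-2 (at least 2 CPM). Partner genes named are up to 3 per list by size of change, and others were chosen after their values were seen. Some genes that these rules name are not reported here. The fit was tested on simulated data. Alternatives were DESeq2 1.42.0, RLE scaling, 2 other count filters, 6 libraries only, a replicate block, thinning of C4-2 replicate 1, each library left out, and members of at least 5 CPM.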

Additional observations from a re-analysis of the deposited data

Results flagged for a closer look

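For ZMYM2 and GJB2 the log2 fold changes against LNCaP had opposite signs in the derivatives. Members were flagged for such signs together with an edgeR adjusted p under 0.05 between MR49F and C4-2. Passing in that contrast was thus a condition of the choice. For ZMYM2 the log2 fold change of MR49F against C4-2 was 0.43 (edgeR adjusted p = 1.93e-04), with values against LNCaP of 0.28 in MR49F and -0.16 in C4-2, the latter not past the threshold. For GJB2 it was -4.08, given without a test because the gene passed the count filter only through C4-2. Its values against LNCaP were 3.72 in C4-2 and -0.36 in MR49F (SE 0.627), where it rests on 8 counts, its replicates overlapped LNCaP and the sign turned without LNCaP replicate 3 (0.13).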

How the results depend on the processing

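The counts of members called (26 in MR49F against LNCaP, 28 in C4-2 against LNCaP and 25 in MR49F against C4-2) were the same with DESeq2, RLE scaling, the 1 CPM filter, only the 6 libraries compared and a random 17.6% of the reads of C4-2 replicate 1. With the replicate block they were also 26, 28 and 25. The 28 and the 25 include GJB2, which passed the count filter only through C4-2. Same-numbered libraries did not deviate together (correlations from -0.0832 to 0.0562), so the numbers were not taken as pairs. Without a count filter, 35 members were tested and the median of C4-2 against LNCaP was 1.54. With each library left out in turn, 24 to 26 (ZMYM2 or SKA3 lost), 28 to 29 and 24 to 25 members were called, and 0 to 1 member was called lower in C4-2 than in LNCaP (ZMYM2, without C4-2 replicate 2). Only 17 members have neither an overlap nor a named pseudogene. Of these, in an alternative chosen after seeing the data, 15 were called in MR49F against LNCaP (15 higher), 16 in C4-2 against LNCaP (16 higher), and 14 in MR49F against C4-2 (3 higher and 11 lower), fewer because fewer were counted. Signs turned for uncalled values only: over the libraries left out, GJB2 in MR49F against LNCaP ran from -0.725 to 0.13, CDK8 in the same comparison from -0.047 to 0.102, and CRYL1 in MR49F against C4-2 from -0.003 to 0.145. For members with a handful of reads, such as FGF9 and AMER2, a difference was not detectable at this depth.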

Other observations

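Of the genes beyond the stretch, FRY, 12.02 Mb from the start of ZMYM5, was higher in C4-2 than in LNCaP (log2 fold change 2.81, edgeR adjusted p = 2.68e-12) and lower in MR49F than in LNCaP (-0.58). SPART, 16.5 Mb from it, was higher in both derivatives (3.37 in MR49F and 6.08 in C4-2). SPART passed the count filter only through the derivatives. No LNCaP library held more than 0.276 CPM of SPART, so the sizes of its 2 fold changes rest on few reads. Mean SPART levels were 2.14 CPM for MR49F and 14.2 CPM for C4-2. The SPART neighbour SOHLH2 was higher in MR49F (3.13) and lower in C4-2 (-2.97). For SOHLH2 the C4-2 mean was only 0.280 CPM, against 1.87 CPM for LNCaP, so the size of that decrease is likewise uncertain. These genes were chosen after their values were seen.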
